A study of Mus musculus with 8 samples.

Results

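Gene-end peaks are stretches of open chromatin at the borders of genes, described here in amygdala neurons of male C57BL/6J mice with a guide RNA against Nr2f2 (sgNr2f2) or a control guide against the Rosa26 locus (sgRosa). A peak of an ATAC-seq library was counted as a member when its q was under 0.05 (a false discovery rate, deposited as −log10 q), its summit lay within 1 kb of either end of a protein-coding gene on chromosomes 1 to 19, and it did not overlap an interval in every one of the other 7 libraries. This left 2519 member peaks of 647290 intervals in the 8 libraries, at 2462 of 20661 protein-coding genes. That is 11.9% of the genes. The members were thus chosen by their own −log10 q and summit position, and their q values are a description. ATAC-seq uses the Tn5 transposase, which cuts and tags DNA where it is not covered by nucleosomes or other proteins. The peak caller had been run on each library, so each list has its own positions and its own values.

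The 4 sgNr2f2 libraries and the 4 sgRosa libraries came from mice that had received the guide in the amygdala by an adeno-associated virus. In both groups the guide was expressed for more than 2 weeks, after which the mice were restrained in tubes for 7 days, conditioned to fear on 1 day and put through extinction for 3 more. There was no group without restraint among the samples, so both groups carry the stress and the conditioning. Neurons were taken from the digested amygdala with a magnetic bead kit, and no selection of virus-carrying cells is described. The animals' age and the source of Cas9 are not given in the sources used here. Nr2f2 encodes COUP-TFII, an orphan nuclear receptor of the steroid receptor superfamily that binds direct repeats of a short half-site and is known for setting the identity of interneurons and of parts of the amygdala. The start of an active gene is usually free of nucleosomes over a short stretch, where general and gene-specific transcription factors bind, and starts rich in CpG tend to be open in most cell types. The far end of a gene is open less often.

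Nr2f2 itself had no member peak in any of the 8 libraries. A single interval lay at its ends, in sgNr2f2 library 1, with a −log10 q of 0.274, and the other 7 libraries had none. Nr2f1, the close relative COUP-TFI, had no member peak either. Its intervals had a −log10 q of 0.845 in sgNr2f2 library 1 and 1.04 in sgNr2f2 library 3, against 0.315 in sgRosa library 4. These lists therefore give no check of the guide at its target.

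The upstream sequences of 7 genes show what stood at the recurring sites near gene starts. They were printed because member peaks of at least 2 libraries overlapped there and the sequence carries those peaks, and Fh1 and Stt3a were chosen after their values were seen. Each line holds the 250 bases before a RefSeq start, 5′ to 3′ on the gene's strand (RefSeq, GRCm38.p6), with capitals for bases inside every member peak of the site that overlaps the window. The windows are chr1:171344704-171344953 on the plus strand for Pfdn2, chr19:59345781-59346030 on the minus strand for Pdzd8, chr1:88211709-88211958 on the plus strand for Ugt1a1 and chr1:88277580-88277829 on the minus strand for Hjurp. The others are chr1:175625636-175625885 for Fh1, chr9:36767623-36767872 for Stt3a and chr12:8500010-8500259 for Rhob, all on the minus strand. The upstream windows of Mbd3, Zfp317 and Hdgfl2 met the same condition, with 67, 55 and 29 bases in capitals, and are not printed.
Pfdn2: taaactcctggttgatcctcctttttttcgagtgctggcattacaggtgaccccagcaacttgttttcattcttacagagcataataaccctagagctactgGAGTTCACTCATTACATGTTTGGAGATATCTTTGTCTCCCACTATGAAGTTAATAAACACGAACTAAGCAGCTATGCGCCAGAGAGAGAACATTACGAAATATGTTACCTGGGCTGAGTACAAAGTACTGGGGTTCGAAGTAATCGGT
Pdzd8: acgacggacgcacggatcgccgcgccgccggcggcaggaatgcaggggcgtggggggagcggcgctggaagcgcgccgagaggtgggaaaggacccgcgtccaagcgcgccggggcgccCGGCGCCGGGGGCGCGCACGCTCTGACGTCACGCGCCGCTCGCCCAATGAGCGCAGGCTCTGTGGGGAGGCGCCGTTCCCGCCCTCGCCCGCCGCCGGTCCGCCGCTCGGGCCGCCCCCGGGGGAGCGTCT
Ugt1a1: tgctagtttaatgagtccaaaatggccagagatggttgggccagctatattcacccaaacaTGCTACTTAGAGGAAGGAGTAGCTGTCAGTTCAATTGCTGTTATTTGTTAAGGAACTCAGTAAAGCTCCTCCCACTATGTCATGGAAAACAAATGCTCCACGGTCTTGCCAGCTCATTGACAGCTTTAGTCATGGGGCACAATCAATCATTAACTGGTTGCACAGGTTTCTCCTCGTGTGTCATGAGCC
Hjurp: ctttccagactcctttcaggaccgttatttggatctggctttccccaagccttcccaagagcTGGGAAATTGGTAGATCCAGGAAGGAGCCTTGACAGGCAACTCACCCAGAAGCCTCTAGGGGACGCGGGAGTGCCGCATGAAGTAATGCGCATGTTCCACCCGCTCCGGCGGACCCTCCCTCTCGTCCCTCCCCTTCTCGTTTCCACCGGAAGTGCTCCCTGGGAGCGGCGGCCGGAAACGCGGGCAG
Fh1: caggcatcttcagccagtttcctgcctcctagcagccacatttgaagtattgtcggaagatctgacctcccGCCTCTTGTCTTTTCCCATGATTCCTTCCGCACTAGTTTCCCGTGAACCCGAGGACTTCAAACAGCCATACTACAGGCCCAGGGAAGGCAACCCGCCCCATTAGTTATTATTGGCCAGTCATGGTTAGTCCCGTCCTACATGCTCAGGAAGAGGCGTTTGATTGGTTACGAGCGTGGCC
Stt3a: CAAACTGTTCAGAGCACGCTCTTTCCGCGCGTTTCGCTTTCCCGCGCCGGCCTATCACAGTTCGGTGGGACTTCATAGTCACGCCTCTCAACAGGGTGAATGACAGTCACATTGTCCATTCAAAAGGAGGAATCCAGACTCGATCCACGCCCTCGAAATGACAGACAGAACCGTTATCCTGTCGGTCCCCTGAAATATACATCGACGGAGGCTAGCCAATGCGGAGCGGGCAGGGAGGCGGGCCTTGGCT
Rhob: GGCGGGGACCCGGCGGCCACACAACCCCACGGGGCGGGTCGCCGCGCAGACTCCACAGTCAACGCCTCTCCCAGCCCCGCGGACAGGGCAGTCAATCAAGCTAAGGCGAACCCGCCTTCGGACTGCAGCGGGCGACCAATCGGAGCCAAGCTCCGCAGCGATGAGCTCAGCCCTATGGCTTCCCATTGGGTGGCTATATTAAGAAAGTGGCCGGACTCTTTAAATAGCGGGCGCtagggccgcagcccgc
The capitals of Pdzd8 hold a CCAAT box, the first 7 letters of a cyclic AMP response element (TGACGTC) and a GC box, all searched on both strands. The GC box was searched as GGGCGG. Those of Hjurp hold a CCAAT box, an ETS core (CCGGAAG) and an NRF1 core (GCGCATG), those of Fh1 and Rhob a GC box and a CCAAT box, and those of Stt3a a CCAAT box. Neither the Pfdn2 nor the Ugt1a1 window matched any of the 8 motifs searched. A nuclear receptor half-site (AGGTCA) was found in 1 of these 7 windows, that of Fh1, outside the capitals. The observed over expected CpG ratio was 1.18 in the Pdzd8 window, 1.02 in Stt3a, 0.884 in Rhob, 0.698 in Hjurp, 0.587 in Fh1, 0.544 in Pfdn2 and 0.159 in Ugt1a1.

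The number of member peaks was 328, 172, 469 and 276 in sgNr2f2 libraries 1 to 4, against 541, 165, 224 and 344 in sgRosa libraries 1 to 4. The highest and the lowest count were both in sgRosa libraries, and the groups overlapped. The groups averaged 311 ± 124 peaks in sgNr2f2 and 318.5 ± 166 peaks in sgRosa (± SD over 4 libraries each), and an exact permutation test over the 70 ways to divide the libraries gave a two-sided p of 0.943. The smallest p that 4 against 4 libraries can give is 0.0286. Genes with a member peak numbered 354, 181, 510 and 296 in the sgNr2f2 libraries, against 603, 183, 246 and 372 in the sgRosa libraries (exact permutation p = 0.914). Over a group, 1269 genes (6.14%) had a member peak in at least 1 sgNr2f2 library and 1332 genes (6.45%) in at least 1 sgRosa library.

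**Figure D1:**
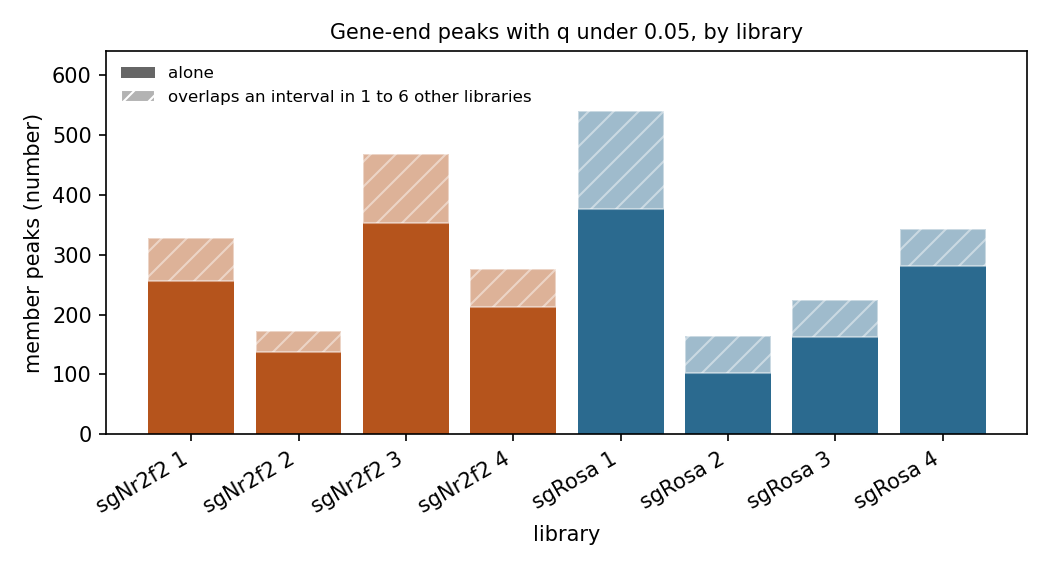
Number of member peaks in each of the 4 sgNr2f2 libraries (orange) and 4 sgRosa libraries (blue), with the hatched part overlapping an interval in 1 to 6 other libraries. Counts run between 172 and 469 in sgNr2f2 and between 165 and 541 in sgRosa, and most peaks of every library stand alone.

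The lists differed in length for reasons that the labels do not give. They held 103822, 97316, 63164 and 53799 intervals in sgNr2f2 libraries 1 to 4, against 63595, 62272, 60813 and 142509 in sgRosa libraries 1 to 4. Peaks of q under 0.05 numbered 8582, 5827, 11742 and 7116 in the sgNr2f2 libraries, against 11792, 2986, 5760 and 10567 in the sgRosa libraries. The files give no read depth, so the precision behind a single peak is unknown. Libraries sgRosa 1 and sgRosa 2 stood apart in the results on gene starts. Start share, start position and CpG ratio are given with and without them, and the letters searched in promoters only with all libraries.

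The member peaks were short and mostly close to the threshold. Their median width was 183.5 to 202.5 bp in the sgNr2f2 libraries and 195.5 to 214 bp in the sgRosa libraries, and the median fold enrichment at the summit, the authors' own value for a peak, was 3.06 to 3.46 in sgNr2f2 and 3.14 to 3.63 in sgRosa. Median −log10 q was 1.44, 1.58, 1.47 and 1.39 in the sgNr2f2 libraries, against 1.72, 1.64, 1.89 and 1.36 in the sgRosa libraries. In each library a single q value was shared by 33.0% to 54.7% of the member peaks, because q moves in steps. Of the 2519 peaks, 637 (25.3%) reached a −log10 q of 2 and 37 (1.47%) reached 5. Just inside the threshold were peaks at Cd63 in sgRosa library 4 with 1.3028 and at Rassf2 in sgNr2f2 library 3 with 1.3036, and just outside were peaks of 1.3009 in sgRosa library 1 and 1.2973 in sgRosa library 2.

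Gene ends took about the same small share of the q-passing peaks as of the rest. Among peaks of q under 0.05, 3.92%, 3.07%, 4.08% and 4.00% lay at gene ends in sgNr2f2 libraries 1 to 4, against 4.68%, 5.96%, 4.05% and 3.32% in sgRosa libraries 1 to 4. The groups did not differ past the test (3.77% ± 0.471 in sgNr2f2, 4.50% ± 1.12 in sgRosa, exact permutation p = 0.257, n = 4 each). Among the remaining peaks the shares were 3.91%, 3.06%, 4.34% and 3.96% in the sgNr2f2 libraries, against 3.66%, 3.83%, 3.90% and 3.33% in the sgRosa libraries. The share was higher among q-passing peaks in 6 of 8 libraries, by 0.388 ± 0.801 percentage points (SD, n = 8), and an exact permutation test by sign flips within libraries gave p = 0.266 (0.332 adjusted over 5 such comparisons). Most of this difference sat in sgRosa libraries 1 and 2, and without both it was -0.0240 points. Without sgNr2f2 library 3 the test gave an exact permutation p of 0.0469 before adjustment. Of all gene-end peaks, 8.10%, 5.80%, 17.4% and 13.0% had a q under 0.05 in the sgNr2f2 libraries, against 22.2%, 6.78%, 9.45% and 7.26% in the sgRosa libraries. The groups averaged 11.1% ± 5.17 in sgNr2f2 and 11.4% ± 7.28 in sgRosa (exact permutation p = 0.914, n = 4 each).

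Most member peaks were seen in 1 library alone. No other library had an interval at 1882 of the 2519 member peaks (74.7%), 440 overlapped an interval in 1 other library, 97 in 2, 50 in 3 and the other 50 in 4 to 6. The share overlapping at least 1 other library was 21.6%, 20.3%, 24.7% and 23.2% in sgNr2f2 libraries 1 to 4, against 30.5%, 37.6%, 27.2% and 18.3% in sgRosa libraries 1 to 4. The sgRosa libraries held both the highest and the lowest share, and the groups did not differ past the test (22.5% ± 1.90 in sgNr2f2, 28.4% ± 7.99 in sgRosa, exact permutation p = 0.2, n = 4 each). Without sgRosa library 4 the difference was -9.85 points (exact permutation p = 0.0286 before adjustment). The rule for members itself drops peaks by overlap, and the share depends on the length of the other lists. With the dropped peaks kept the difference was -5.93 points (exact permutation p = 0.171). With lists cut to equal length it was -6.48 points (exact permutation p = 0.171).

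Member peaks recurred more often than other peaks of their own library. Gene-end peaks of q over 0.05 overlapped another library in 15.8%, 14.8%, 17.8% and 16.2% of cases in the sgNr2f2 libraries, against 20.7%, 21.4%, 18.1% and 13.3% in the sgRosa libraries. Member peaks were higher in 8 of 8 libraries, at 25.4% ± 6.24 against 17.3% ± 2.81 (SD, n = 8). The members were chosen by q and by overlap with the other libraries, so this is a description and no test is given. Peaks of q under 0.05 away from gene ends recurred in 17.3% ± 2.23, again lower than member peaks in 8 of 8 libraries, by 8.18 points on average. Without sgRosa libraries 1 and 2 the differences were 4.26 and 3.10 points. Member peaks were also wider than the remaining gene-end peaks, whose median width was 162 to 168 bp, and the part of width in the overlap was not tested.

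Over the libraries together, gene starts held more of the member peaks than far ends did. The strand was known for 2065 member peaks (82.0%), and 1240 of these had the summit nearer to the start. The share was 56.9%, 58.3%, 55.8% and 57.3% in sgNr2f2 libraries 1 to 4, against 71.1%, 73.4%, 55.7% and 50% in sgRosa libraries 1 to 4, so sgRosa libraries 1 and 2 lay above all others. The groups averaged 57.1% ± 1.05 in sgNr2f2 and 62.5% ± 11.5 in sgRosa (exact permutation p = 0.429, n = 4 each), and without sgRosa libraries 1 and 2 the mean was 4.25 points higher in sgNr2f2. These libraries were left out for their high start share, which by itself lowers the sgRosa mean. Among gene-end peaks of q over 0.05 the start share was 55.2%, 48.6%, 49.6% and 50.6% in the sgNr2f2 libraries, against 65.0%, 59.5%, 54.4% and 50.2% in the sgRosa libraries. Member peaks were higher in 7 of 8 libraries, by 5.68 ± 4.68 points (SD, n = 8, exact permutation p = 0.0156 before adjustment). Adjusted over 5 comparisons the exact permutation p was 0.0260, but these include the 2 recurrence comparisons given above without a test. Without those the adjusted p would be higher. Without sgRosa libraries 1 and 2 the difference was 4.05 points with an exact permutation p of 0.0625. In sgNr2f2 library 1 and sgRosa library 4 the strand was known for 79.9% and 79.1% of the member peaks, under the 80% taken as sufficient for such a count. With the other 6 libraries alone, a choice made after the data were seen, the difference was 7.31 points (exact permutation p = 0.0312).

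**Figure D2:**
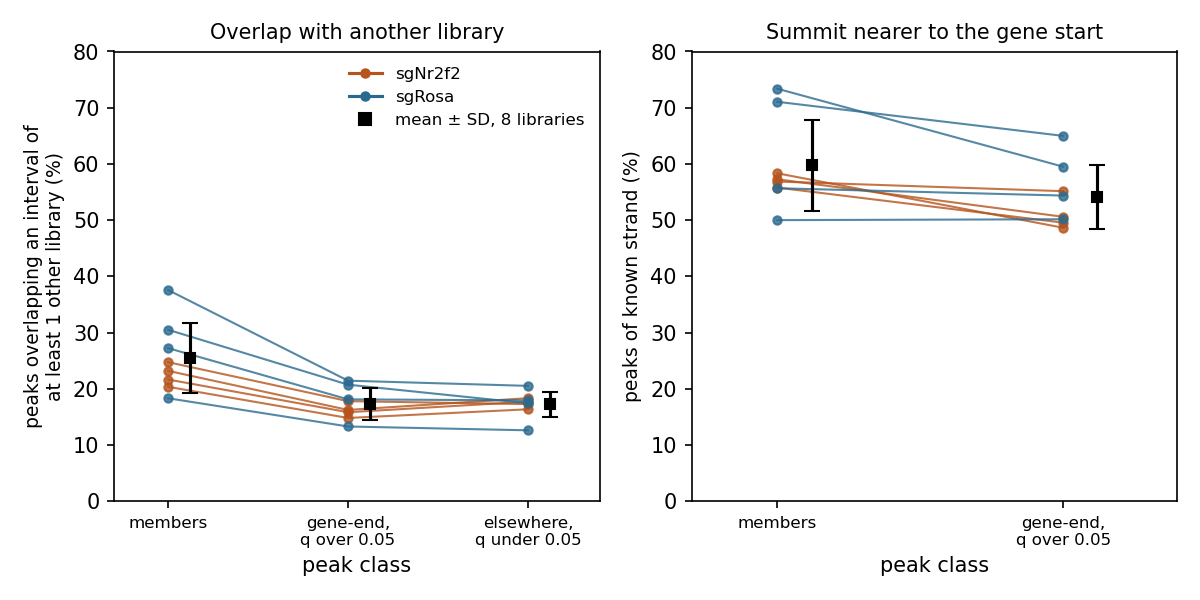
Share of peaks overlapping an interval of at least 1 other library (left) and share with the summit nearer to the gene start (right), in percent, with a line per library (orange sgNr2f2, blue sgRosa) and the mean and SD of the 8 libraries in black. Every line is higher at member peaks than at the other classes on the left, and the 2 highest lines on the right are sgRosa libraries 1 and 2.

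Within the start side, summits gathered just upstream of the start. The bin reaching 250 bp upstream held 23.5% ± 9.90 of the start-side member peaks and 19.9% ± 5.60 of the other start-side peaks (SD, n = 8), and the 250 bp downstream held 14.1% ± 2.77 and 15.3% ± 1.98. Without sgRosa libraries 1 and 2 the upstream bin held 18.9% ± 5.73 of the member peaks and 17.01% ± 1.96 of the other peaks (SD, n = 6). The other bins of 250 bp held 8.52% to 12.5% of the member peaks. The share of start-side member peaks within 250 bp on either side was 30.2%, 23.8%, 33.5% and 33.1% in the sgNr2f2 libraries, against 54.6%, 55.9%, 35.9% and 34.6% in the sgRosa libraries. All 4 sgRosa values lay above the 4 sgNr2f2 values, which was noticed in the data and not tested, and sgRosa libraries 3 and 4 were within 3 points of the highest sgNr2f2 library. Member peaks at starts overlapped another library more often than those at far ends in 8 of 8 libraries, at 31.4% ± 6.52 against 16.7% ± 4.33 (SD, n = 8), a comparison chosen after the values were seen and given without a test. Among the 6 libraries other than sgRosa 1 and 2, it was 20.2% ± 2.93 against 12.8% ± 2.97, higher at starts in 6 of 6.

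**Figure D3:**
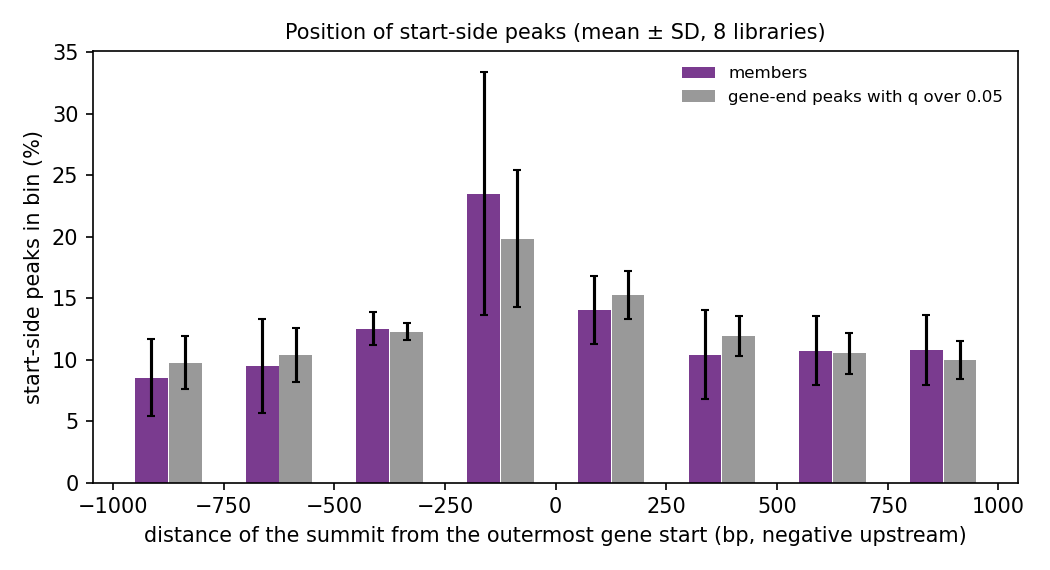
Position of start-side peaks by distance of the summit from the outermost gene start in bins of 250 bp (negative is upstream), as the mean percent over 8 libraries with SD bars, for member peaks (purple) and gene-end peaks of q over 0.05 (grey). The bin just upstream of the start is the highest in both classes, at 23.5% and 19.9%.

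Member peaks at promoters went with slightly more CpG than the average promoter. The observed over expected CpG ratio averaged 0.607 in the 1127 RefSeq promoters of 1122 genes with a member peak, 0.584 in the 6121 promoters with other gene-end peaks alone, and 0.550 in all 20084 promoters. It exceeded 0.6 in 58.1%, 53.8% and 48.9% of these promoters. By library the mean was 0.582, 0.444, 0.616 and 0.621 in sgNr2f2 libraries 1 to 4, against 0.655, 0.662, 0.530 and 0.610 in sgRosa libraries 1 to 4. The groups overlapped (exact permutation p = 0.486, n = 4 each), and member peaks did not differ from other gene-end peaks of the same library past the test (-0.00383 on the ratio, exact permutation p = 0.867, n = 8). Of the letters searched on both strands, none of which contains another, CCAAT was found in 46.8% of promoters with a member peak, 38.8% of those with other gene-end peaks alone and 38.1% of all promoters. By library its share at member peaks was 36.2% to 47.0% in sgNr2f2 and 40.4% to 66.3% in sgRosa. GGGCGG was found in 55.2%, 51.97% and 47.0% of the same promoters, at 39.8% to 59.2% by library in sgNr2f2 and 44.1% to 65.3% in sgRosa. The half-site AGGTCA, which COUP-TF proteins read in pairs, was found in 13.7% of promoters with a member peak and 14.7% of all promoters. In the same order TGACGTC was in 4.70% and 3.92%, CCGGAAG in 13.1% and 11.9%, GCGCATG in 6.57% and 4.84%, TATAAA in 11.4% and 12.7% and TGANTCA in 6.65% and 7.06%. These are counts of letters in promoter windows, not of bound sites.

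Few genes came back in a further library. A member peak was found in exactly 1 library at 2237 genes, in 2 libraries at 193, in 3 at 19, in 4 at 6, in 5 at 3, in 6 at 2 and in 7 at 2. The 225 genes in at least 2 libraries were 1.09% of all protein-coding genes and 9.14% of the genes with a member peak. Of them 139 had a member peak in both groups, 40 in sgNr2f2 libraries only and 46 in sgRosa libraries only. In 144 of the 225 (64.0%) the peaks of different libraries did not overlap, so the gene recurred but not the site. Without sgNr2f2 library 3, 149 genes recurred, and without sgRosa library 1, 136.

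Counted by site, the recurrence was rarer and lay mostly at starts. The 2519 peaks merged into 2418 sites, of which 68 (2.81%) held member peaks of at least 2 libraries. Of the 60 recurring sites with a known strand, 48 (80%) were at the start, against 58.4% of the sites of 1 library. Of all 68, 15 (22.1%) stood at the ends of 2 genes at once, against 9.49% of the sites of 1 library. sgNr2f2 libraries alone made up 8 of the 68 sites, sgRosa libraries alone 20 and both groups 40. Among the 54 sites of exactly 2 libraries, 11 were shared by sgRosa libraries 1 and 2, and no other pair had more than 4. Counting only the other 6 libraries, 28 sites recurred, and 15 of the 22 with a known strand (68.2%) were at the start, against 54.6% of the sites of 1 of those libraries. All 14 sites of at least 3 libraries held both groups.

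Taco1 and LOC100504180 were the most recurrent genes, each in 4 of 4 sgNr2f2 libraries and 3 of 4 sgRosa libraries. Taco1 (chromosome 11, 106066057 to 106074035), a translational activator of mitochondrially encoded cytochrome c oxidase subunit I, had its peak 725 to 738 bp inside the start. The −log10 q of its peak was 4.71, 9.71, 19.6 and 4.84 in sgNr2f2 libraries 1 to 4, against 3.24, 6.11 and 3.91 in sgRosa libraries 1, 3 and 4, with no member peak in sgRosa library 2. The peak borders agreed to within 2 bp at the left end in 6 of those 7 libraries, and fold enrichment was 3.85 to 7.52. The peak of LOC100504180 (chromosome 10, 58222403 to 58225832) had a −log10 q of 9.60, 8.83, 18.96 and 11.8 in the sgNr2f2 libraries, against 3.53, 3.12 and 12.3 in sgRosa libraries 2, 3 and 4. It lies beside Duxf3, a double homeobox gene of a repeated array, where reads of near-identical copies may not be placed apart. These values are not scaled between libraries, so their order across groups is no measure of accessibility. The same 2 genes also carried the strongest member peak of every sgNr2f2 library and of sgRosa library 4, while the strongest elsewhere stood at Cep350, Fh1 and Rab8a (7.54 each, tied, sgRosa 1), Ankhd1 (7.51, sgRosa 2) and Gnat3 (7.91, sgRosa 3, in no other library).

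The genes in 5 or 6 libraries came next and had mixed functions. Pfdn2, a subunit of the prefoldin chaperone that hands nascent actin and tubulin to the folding machinery, was in 4 sgNr2f2 and 2 sgRosa libraries. The highest −log10 q at its start was 1.80, 2.05, 2.09 and 2.93 in the sgNr2f2 libraries, against 3.88 and 2.50 in sgRosa libraries 1 and 3. Part of these peaks also counts for Nit1, a nitrilase-family amidase on the other side, with 3 sgNr2f2 and 2 sgRosa libraries. Tmem267 was in 2 sgNr2f2 and 4 sgRosa libraries at 5 separate sites, and its ends also hold a peak that was dropped as common to all 8 libraries. Smok2b, a sperm motility kinase gene with close copies, was in 3 sgNr2f2 and 2 sgRosa libraries. Ugt1a1, the glucuronosyltransferase that conjugates bilirubin, had the same counts. At its start the −log10 q was 2.01 and 2.60 in sgNr2f2 libraries 1 and 4, against 1.70 and 1.39 in sgRosa libraries 1 and 4. Further peaks at this start, dropped as common to all 8 libraries, had 1.55, 1.64, 3.92 and 2.41 in sgRosa libraries 1 to 4. The member peaks alone are thus no measure of a group difference there. The far end of Ugt1a1 is shared with 6 other Ugt1a genes, so a peak there counts for 7 genes at least, and the peak of sgNr2f2 library 3 counts for Ugt1a8 and Ugt1a6b as well.

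Identical or nearly identical borders marked 3 of the genes in 4 libraries. Pdzd8, a lipid-transfer protein of contact sites of the endoplasmic reticulum, had a peak from 59345750 to 59345911 on chromosome 19 in each of its 4 libraries, which reaches across its start and into the window printed above. Its −log10 q was 6.70 and 4.08 in sgNr2f2 libraries 3 and 4, against 2.50 and 10.3 in sgRosa libraries 3 and 4, and the groups overlapped. Tnpo1, the nuclear import receptor transportin, had a peak at its far end with 1.40 and 5.86 in sgNr2f2 libraries 1 and 4, against 4.94 and 3.91 in sgRosa libraries 3 and 4. Clcn4, a chloride and proton exchanger of endosomes, had 4.89, 3.86 and 2.32 in sgNr2f2 libraries 1, 3 and 4, against 1.36 in sgRosa library 4. Gm51571 was likewise in 3 sgNr2f2 libraries and 1 sgRosa library at one site. 4931408C20Rik and Mbd3, a subunit of the NuRD chromatin remodelling complex, were in 2 libraries of each group, and the 5 peaks of Mbd3 fell at 4 sites.

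**Figure D4:**
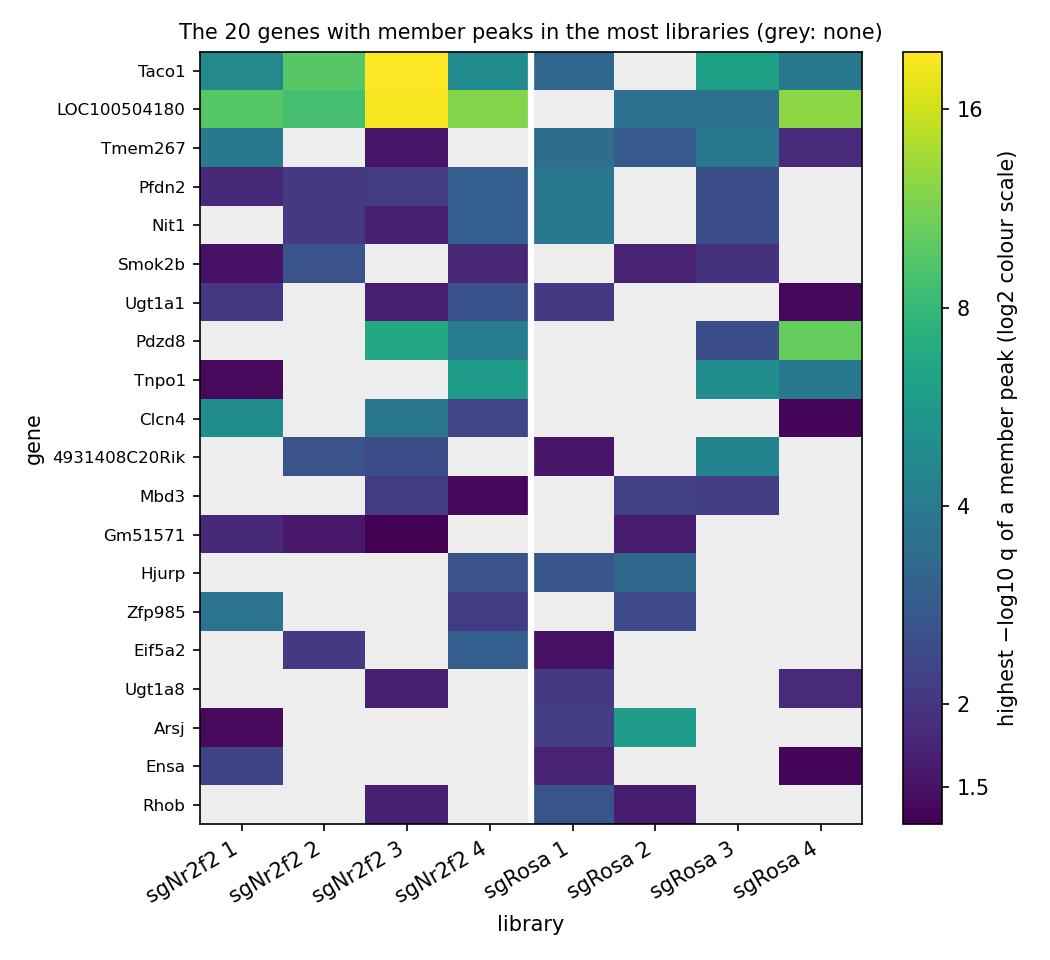
Highest −log10 q of a member peak (colour, log2 scale, grey where there is none) for the 20 genes with member peaks in the most libraries, in the 4 sgNr2f2 libraries (left) and the 4 sgRosa libraries (right). Taco1 and LOC100504180 are filled in 7 of 8 columns, and no gene is filled in all columns of one group and empty in the other.

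The genes in 3 libraries named by the same order mixed nuclear, translation and signalling functions. Hjurp, the chaperone that loads the centromeric histone CENP-A, had a −log10 q of 2.63 in sgNr2f2 library 4, against 2.71 and 1.44 in sgRosa libraries 1 and 2 at the same site, and sgRosa library 2 had a further peak of 3.26 nearby. Rhob, a small GTPase, had 1.66 at its far end in sgNr2f2 library 3, against 2.66 and 1.64 at its start in sgRosa libraries 1 and 2. Arsj, an arylsulfatase, had 1.40 in sgNr2f2 library 1, against 2.15 and 5.85 in sgRosa libraries 1 and 2, with the sgNr2f2 peak at the start and the sgRosa peaks at the far end. Ensa, an inhibitor of the phosphatase PP2A, had 2.28 in sgNr2f2 library 1, against 1.72 and 1.36 in sgRosa libraries 1 and 4, at different sites. Eif5a2, a translation elongation factor, had 2.05 and 2.93 in sgNr2f2 libraries 2 and 4, against 1.49 in sgRosa library 1, again at different sites. The zinc finger gene Zfp985 was in 2 sgNr2f2 libraries and 1 sgRosa library. Fh1, the fumarate hydratase of the citric acid cycle, had 1.39 in sgNr2f2 library 4, against 7.54 and 1.64 in sgRosa libraries 1 and 2. Stt3a, the catalytic subunit of an oligosaccharyltransferase, had 1.58 in sgNr2f2 library 2, against 2.66 and 1.36 in sgRosa libraries 1 and 4.

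No gene had a member peak in every library of one group and in none of the other, in either direction (0% of 2462 genes). By Fisher's exact test on the number of libraries, 0 genes reached p = 0.05 before adjustment. The lowest p was 0.143, where 4 against 4 libraries allow 0.0286, and after Benjamini-Hochberg adjustment every p was 1. At least 2 more sgNr2f2 than sgRosa libraries were seen at 43 genes (1.75%), and at least 2 more sgRosa than sgNr2f2 libraries at 47 genes (1.91%). The counts in the 2 directions were thus close to each other.

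Armc6, an armadillo repeat gene, led towards sgNr2f2, with 3 sgNr2f2 libraries and no sgRosa library. Its 3 peaks lay at different places with a −log10 q of 2.28, 1.31 and 1.41, and 1 of them is shared with Sugp2. Duxf3, Fer1l5, Gm32584, Zfp110, Dynap and Eif6 each had member peaks in 2 sgNr2f2 libraries and in no sgRosa library. Intervals of any q did stand at the ends of Fer1l5 in 2 sgRosa libraries, and at those of Armc6 and Eif6 in 1. No sgRosa library had one at Duxf3, Gm32584, Zfp110 or Dynap. Eif6, a factor that keeps the large ribosomal subunit from joining too early, had 2.62 and 1.31 in sgNr2f2 libraries 1 and 3, and Fer1l5, of the ferlin family of membrane fusion proteins, had 2.86 and 1.58 in sgNr2f2 libraries 1 and 2. Duxf3 had 1.80 and 7.53 in sgNr2f2 libraries 1 and 3, in the repeated array already named.

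In the other direction, Sp1 had the highest median −log10 q among genes with member peaks in 2 sgRosa libraries and no sgNr2f2 library. Sp1, the zinc finger factor that binds GC boxes, had a −log10 q of 6.76 and 4.74 in sgRosa libraries 1 and 2, at 361 and 371 bp from its start. Eif2ak3, the endoplasmic reticulum stress kinase PERK, had 2.15 and 3.53 in the same libraries. Klhl28 and Togaram1 share their start region, with 3.85 in sgRosa library 1 and 1.72 in sgRosa library 4. Etfdh passes electrons from fatty acid oxidation to ubiquinone. It shares its peaks with 4930579G24Rik, at 3.53 in sgRosa library 2 and 3.09 in sgRosa library 3. Other genes of this kind by the same order were 4930467E23Rik and Gm1979. Intervals of any q did stand at the ends of Klhl28 and Togaram1 in 2 sgNr2f2 libraries. The same held in 1 sgNr2f2 library for Sp1, Eif2ak3, Etfdh, 4930579G24Rik and Gm1979, and in no sgNr2f2 library for 4930467E23Rik. A gene seen in 2 of 4 libraries against 0 of 4 is within what Fisher's exact test cannot tell apart here.

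Few marker genes of cell types had member peaks. Of 78 markers of 7 cell classes, 5 (6.41%) had one, against 11.9% of all genes, although 60 of them (76.9%) had an interval of any q at their ends, against 66.9% of all genes. None of 15 pan-neuronal, 10 glutamatergic or 10 oligodendrocyte markers had a member peak, and 14 of the 15 pan-neuronal markers belonged to the genes with an interval of any q. The 5 were Sst (a GABAergic neuropeptide gene, 1.40, sgNr2f2), Sox9 (an astrocyte factor, 1.80, sgNr2f2), Cldn5 (an endothelial junction gene, 1.39, sgNr2f2), Acta2 (a smooth muscle actin, 2.66, sgRosa) and Cx3cr1 (the microglial fractalkine receptor, 1.36, sgRosa), each in 1 library. The neuronal label of the cells can thus not be checked from member peaks at these genes.

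Genes of neuronal activity and stress had member peaks in 1 library each. Jun and Nr4a3 were the 2 of 21 immediate early genes (9.52%, against 11.9% of all genes), with 2.25 and 1.37, in 1 sgRosa library. Of 19 stress and fear genes 3 had one (15.8%). Ntrk2, the receptor of BDNF, had 2.93 in an sgNr2f2 library, while Crhbp, which binds corticotropin-releasing hormone, had 1.99 and Nr3c1, the glucocorticoid receptor, 1.72, each in an sgRosa library. Of 31 synapse genes, 4 had a member peak, all in sgNr2f2 libraries, among them the glutamate receptor subunits Gria2 (2.86) and Grin2a (1.66) and the release factor Cplx1 (1.31). Each was in 1 library, and 4 of 31 (12.9%) is close to the 11.9% of all genes. By group it was 12.9% in sgNr2f2, against 6.14% of all genes, and 0% in sgRosa, against 6.45%. This rests on 4 genes and was not tested. Nuclear receptors had 7 of 45 genes (15.6%), 3 (6.67%) in sgNr2f2 and 4 (8.89%) in sgRosa. Among them were Nr6a1 (2.63) in sgNr2f2 and Nr2e3 (1.82) and Ppara (1.51) in sgRosa.

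Housekeeping lists were nearer to or above the background. Over 15 such lists, 193 of 1256 genes (15.4%) had a member peak, against 11.9% of all genes, with 88 (7.01%) in sgNr2f2 and 113 (8.997%) in sgRosa. In at least 2 libraries there were 19 of them (1.51%), against 1.09% of all genes. Intervals of any q were also more common at these genes, at 72.9% against 66.9% of all genes. Of all genes, 6.14% had a member peak in sgNr2f2 and 6.45% in sgRosa. DNA repair had the highest share, with 20 of 64 genes (31.2%), 10 (15.6%) in sgNr2f2 and 10 (15.6%) in sgRosa. An interval of any q stood at 85.9% of the DNA repair genes. Xrcc2, which acts in homologous recombination, had 2 sgNr2f2 libraries, and Xrcc3, of the same pathway, a −log10 q of 6.35 in 1 sgNr2f2 library. The count for DNA repair per library was 0 to 7 in sgNr2f2 and 1 to 5 in sgRosa, so it moved from library to library within a group. tRNA synthetases had 7 of 35 genes (20%), with Wars2 in 2 sgRosa libraries, and chaperones 16 of 84 (19.05%), with Hspa2 and Cct3 in 1 library of each group.

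Further lists of cell upkeep, organelles and trafficking ran from 7.89% to 17.2%, on both sides of the 11.9% of all genes. The respiratory chain had 16 of 93 genes (17.2%), 6 (6.45%) in sgNr2f2 and 10 (10.8%) in sgRosa. Its succinate dehydrogenase subunit Sdha was in 2 sgRosa libraries, and the complex I subunit Ndufa13 had 5.12 in 1 sgRosa library. Rab GTPases and vesicle coats had 31 of 180 (17.2%), 18 (10%) in sgNr2f2 and 14 (7.78%) in sgRosa. Rab8a had 7.54 in an sgRosa library. Ubiquitin genes had 17 of 104 (16.3%), 5 (4.81%) in sgNr2f2 and 12 (11.5%) in sgRosa. Splicing and mRNA processing had 18 of 120 (15%), RNA polymerase and mediator 14 of 100 (14%), the proteasome 7 of 50 (14%), histones 2 of 13, translation factors 7 of 68 (10.3%), kinesins and dyneins 5 of 59 (8.47%) and phosphatase subunits 6 of 76 (7.89%). Cytosolic ribosomal proteins had 10 of 94 (10.6%) and mitochondrial ones 10 of 78 (12.8%). The cell cycle list had 12 of 97 (12.4%, against 11.9% of all genes), 2 (2.06%, against 6.14% of all genes) in sgNr2f2 and 10 (10.3%, against 6.45% of all genes) in sgRosa. Cyclin A2 (Ccna2) and Ccnt2, a cyclin of transcription elongation that the list took in by its name, were in 2 sgRosa libraries each. By library it held 0 to 2 such genes in sgNr2f2 and 2 to 5 in sgRosa, and 1 of its sgNr2f2 genes, Cdc42ep3, is an effector of Cdc42 taken in the same way.

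Large gene families of sensory tissue stayed below the background. Olfactory receptors had 103 of 1104 genes (9.33%), 45 (4.08%) in sgNr2f2 and 60 (5.43%) in sgRosa. Vomeronasal receptors had 23 of 354 (6.50%), 5 (1.41%) in sgNr2f2 and 18 (5.08%) in sgRosa, of which sgRosa library 1 had 12. Of all genes, 6.14% had a member peak in sgNr2f2 and 6.45% in sgRosa. Keratins had 3 of 109 (2.75%). Intervals of any q were also fewer there, at 55.7%, 31.4% and 47.7% of the genes, against 66.9% of all genes. Zinc finger proteins had 56 of 457 (12.3%), near the background. In at least 2 libraries there were 15 of the 457, against 225 of all 20661 protein-coding genes (1.09%), a comparison that was not tested. Solute carriers had 38 of 376 (10.1%), 22 (5.85%) in sgNr2f2 and 16 (4.26%) in sgRosa. Members of these families have close copies, so single genes are uncertain.

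**Figure D5:**
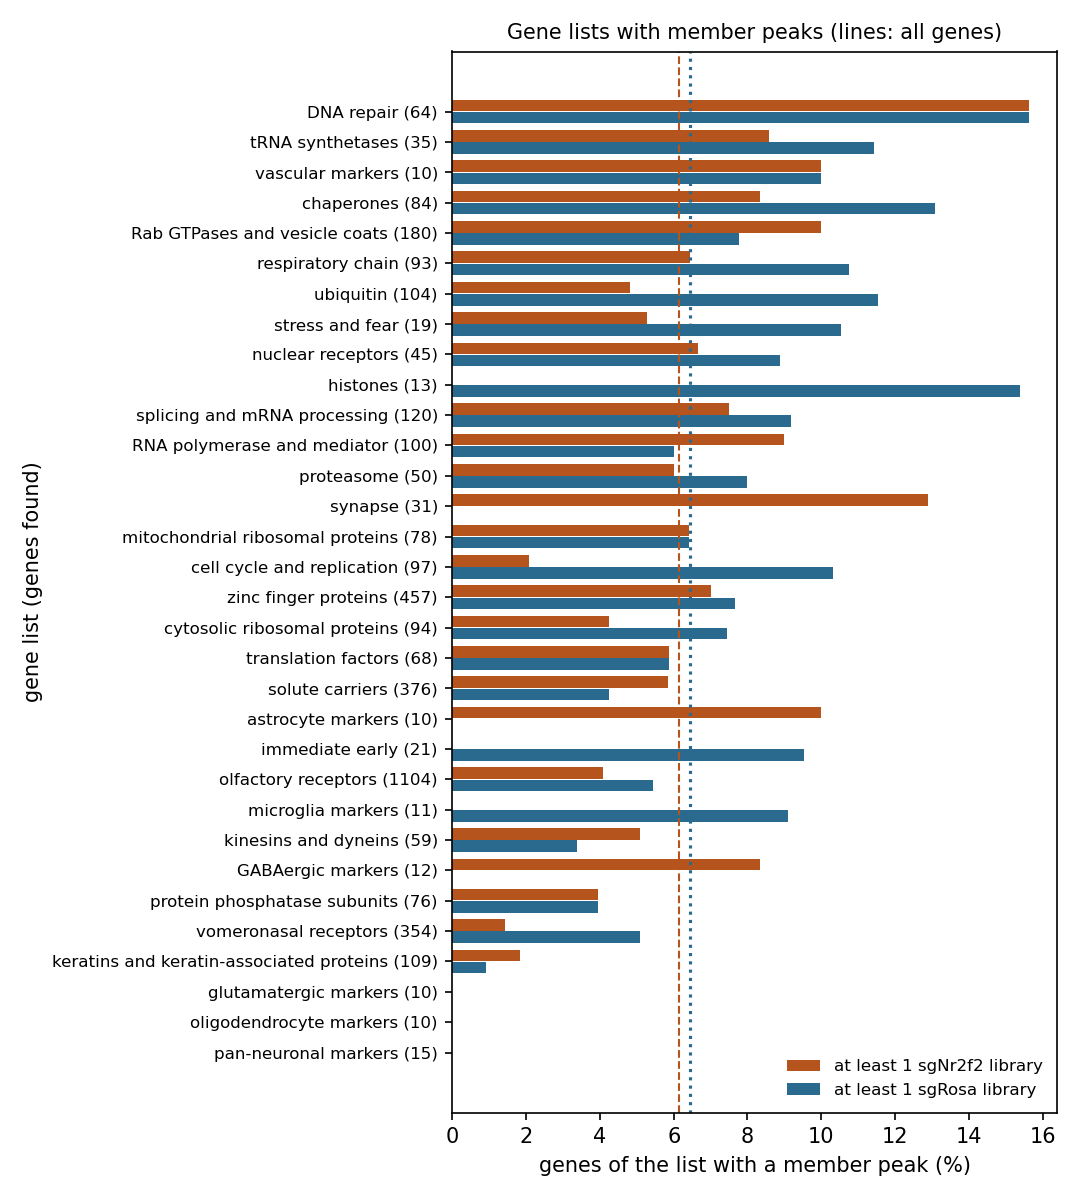
Percent of the genes of each list with a member peak in at least 1 sgNr2f2 library (orange, upper bar) or sgRosa library (blue, lower bar), with the number of genes in brackets and vertical lines at 6.14% (sgNr2f2, dashed) and 6.45% (sgRosa, dotted) for all protein-coding genes. DNA repair stands at the top with the same share in both groups, and the pan-neuronal, glutamatergic and oligodendrocyte lists are empty.

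Member peaks between neighbouring genes were less common in sgNr2f2 libraries, though not past the test. The share at the ends of at least 2 genes was 9.76%, 6.98%, 9.17% and 8.33% in sgNr2f2 libraries 1 to 4, against 12.4%, 11.5%, 12.5% and 9.30% in sgRosa libraries 1 to 4. Only sgRosa library 4 fell within the range of the sgNr2f2 libraries. The means were 8.56% ± 1.21 in sgNr2f2 and 11.4% ± 1.48 in sgRosa, a difference of -2.87 points with an exact permutation p of 0.0571 (0.457 adjusted over 8 comparisons of the groups, n = 4 each). Without sgRosa library 4 the difference was -3.67 points, with an exact permutation p of 0.0286 before adjustment, the smallest that 4 and 3 libraries allow. None of the 8 group comparisons passed with all libraries, and these p-values measure the spread between libraries.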

How the data were processed

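ATAC-seq peak lists of 8 libraries (4 sgNr2f2, 4 sgRosa) in mm10 coordinates were used. Peaks were called per library. Per the submitters' processing notes, MACS2 2.2.9.1 was among the tools, with HOMER 4.10 and DiffBind 3.10.0, beside Picard and the read tools MultiQC 1.11, fastp 0.23.2 and FastQC 0.11.9. Aligner and calling options are not given in the sources used here. Each deposited line holds the authors' score, the fold enrichment (a ratio over background), the −log10 p and the −log10 q from the peak caller. Peaks with a p of up to 0.01 are listed, and the deposited values are not scaled between libraries.

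Where an interval had more than 1 summit, the one of highest −log10 p was kept. Protein-coding genes were read from RefSeq's GRCm38.p6 table (mm10), and the start of a gene from RefSeq's promoter table (250 bases before to 50 after), matched by gene ID for 16456 of 20661 genes (79.6%). It gives none on chromosome 18. Overlap meant at least 1 bp. A paired test used the 2 values of each library, and group tests used library means with Benjamini-Hochberg adjustment over each family. Both methods were tested on simulated data. Tools were scipy 1.17.1, statsmodels 0.14.6, pandas 2.3.3, numpy 2.4.6 and matplotlib 3.10.9 in Python 3.11.15.

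The members, the 32 gene lists and the comparisons were chosen with earlier results of these data known. Genes named are Nr2f2 and Nr2f1, the 20 genes in the most libraries (ties by median −log10 q), up to 10 per direction with the largest difference in libraries, up to 4 per list, the strongest peak per library and the peaks nearest to the threshold. A few genes that this rule names are not reported here.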

Additional observations from a re-analysis of the deposited data

Results flagged for a closer look

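In sgNr2f2 library 2, 3.07% of the peaks of q under 0.05 lay at gene ends, against 3.92%, 4.08% and 4.00% in sgNr2f2 libraries 1, 3 and 4, and its gap to the nearest of them was 0.848 of the range of the group. That is past Dixon's 95% limit for 4 values. It was the only one of 16 groups of values so checked, and chance alone marks about 1 in 20. Among the remaining peaks of the same library 3.06% lay at gene ends, also the lowest of the 4.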

How the results depend on the processing

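Group differences are sgNr2f2 minus sgRosa. Several differences near 0 turned direction. With a window of 2 kb in place of 1 kb they were 57.25 member peaks, 67.5 genes and 0.376 points of gene-end peaks with q under 0.05, and the CpG ratio of members less that of other gene-end peaks was 3.7e-04. With a −log10 q of at least 2 that ratio was 0.0233, and the share overlapping another library differed by -13.1 points (exact permutation p = 0.0286). With at least 1 the ratio was 6.9e-04, the share of gene-end peaks with q under the threshold 0.160 points and the share at 2 or more genes -3.43 points (exact permutation p = 0.0286). With a window of 500 bp the start share of members was 6.13 points above other gene-end peaks (exact permutation p = 0.0703). Genes in at least 2 libraries numbered 106 at 500 bp, 562 at 2 kb, 30 at a −log10 q of 2 and 652 at 1. No direction or call changed when lists were cut to equal length, when shared peaks were kept or when overlap had to reach 50%.

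Leaving out 1 library gave ranges of -60 to 66.9 member peaks, -74.4 to 68.4 genes, -2.47 to 3.23 points of gene-end peaks with q under 0.05, -1.13 to -0.250 points of q-passing peaks at gene ends, -9.77 to -1.87 points of start share and -0.0768 to -0.00809 of the CpG ratio. Member peaks turned higher in sgNr2f2 without sgNr2f2 2 (39.2), sgNr2f2 4 (4.5), sgRosa 1 (66.9) or sgRosa 4 (1), genes without sgNr2f2 2 (35.7) or sgRosa 1 (68.4), and the q share without sgNr2f2 1 (0.631), sgNr2f2 2 (1.40) or sgRosa 1 (3.23). The share overlapping another library ranged from -9.85 to -1.19 and that at 2 or more genes from -3.67 to -2.34, each with exact permutation p = 0.0286 without sgRosa 4. The within-library differences ranged from 5.53 to 8.64 and from 5.07 to 9.11 points for recurrence, from 4.32 to 6.51 for the start share, from 0.133 to 0.479 for the gene-end share (exact permutation p = 0.0469 without sgNr2f2 3) and from -0.0100 to 0.0115 for the CpG ratio (0.0115 without sgNr2f2 2 and 0.00257 without sgRosa 3). Genes in every library of one group and none of the other were 0 to 1 towards sgNr2f2 and 0 to 0 towards sgRosa.

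Leaving out sgRosa 1 and 2 together, chosen after seeing the data, gave 27.25 member peaks, 26.25 genes, 0.0847 and 2.71 points for the 2 shares of q, 0.593 points of overlap, 4.25 points of start share, -0.0240 for the gene-end share within libraries and 4.05 for the start share within libraries (exact permutation p = 0.0625), with 4 genes in both remaining sgRosa libraries alone and 102 genes in at least 2 libraries. Without these libraries the CpG ratio of promoters with a member peak differed by -0.00410 between the groups. The CpG ratio of members less that of other gene-end peaks was then -0.0177 (exact permutation p = 0.5625). Leaving out chromosome 18, also added, gave -5.46 points of start share, since no gene there has a strand. The cause of these shifts was not tested.

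A replicate block on the library numbers left the 8 group differences as they were (-7.25 member peaks and -15.75 genes among them), with exact permutation p of 1, 0.875, 0.5, 0.875, 0.375, 0.5, 0.125 and 0.75, where 16 sign flips allow no less than 0.125. Whether the numbers pair the samples cannot be told from these lists, because all correlations were weak. Same-numbered libraries correlated at -0.0160, -0.0375, 0.0298 and 0.0107, and differently numbered ones at -0.0354 to 0.0488. Not every library correlated best with its own number. The lists hold no read depth.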

Other observations

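Lars2, the mitochondrial leucyl-tRNA synthetase, had the strongest gene-end peak of the lists, and it was left out of the members because all 8 libraries share it. Its −log10 q was 73.8 to 109 over the libraries. Oasl1, an interferon-induced gene of the oligoadenylate synthetase family, had 11.4 to 44.97. The shared peaks also stood at Slc30a4, Tmem267, 4931408C20Rik, Gm4981, Ugt1a1 and Elobl, and 70 peaks (2.70% of the gene-end peaks of q under 0.05) were dropped in this way.

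On chromosome X, outside the rule, the number of gene-end peaks of q under 0.05 was 0, 0, 0 and 1 in sgNr2f2 libraries 1 to 4, against 1, 0, 0 and 1 in sgRosa libraries 1 to 4.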
